A study of Mus musculus with 8 samples.

Results

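The Bcl2 family is the set of proteins that decides, at the outer membrane of the mitochondrion, whether a stressed cell dies by apoptosis. Its members were taken as the mouse genes Bcl2, Bcl2l1, Mcl1, Bax, Bak1, Bid, Bad, Bcl2l11, Bbc3 and Pmaip1, by way of every probe set of the array whose platform annotation gives exactly 1 gene symbol and that symbol is on this list. Of the 10 genes listed, 9 had such a probe set, among 18193 genes in all, and the 9 genes were read by 29 probe sets. Bax was not analysed here, since no probe set was named for it alone. Of the 9 genes, 8 passed a filter on low signal, which asks for 50 or more on 2 of the arrays, and were tested, among 8886 genes tested. Bbc3 did not pass it.

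RNA was measured on 8 Affymetrix mouse whole-genome arrays, from common myeloid progenitors (CMP), which can still give rise to red cells, platelets, granulocytes and monocytes, and from granulocyte-monocyte progenitors (GMP), their descendants restricted to granulocytes and monocytes. Both were isolated by flow sorting from the bone marrow of male mice, whose strain background the labels give as mainly C576BL/6. The normal group was G0 TERTER/+, which itself carries 1 modified allele of the telomerase reverse transcriptase gene, and the telomere-dysfunctional group was G4/G5 TERTER/ER, later generations with both alleles modified. Each of the 4 groups (G0 CMP, G4/G5 CMP, G0 GMP and G4/G5 GMP) held 2 pools of 4 mice matched for age and sex. The ages themselves are not given in the sources used here. Each pool gave between 5000 and 20000 cells, and 1 array. The comparisons ask how transcripts of the family differ between the genotypes in each progenitor, and between the progenitors.

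In this pathway, the anti-apoptotic members Bcl2, Bcl2l1 (which encodes Bcl-xL) and Mcl1 hold the effectors Bax and Bak1 in check. The BH3-only members Bid, Bad, Bcl2l11 (Bim), Bbc3 (Puma) and Pmaip1 (Noxa) are raised or activated by death receptor signals, loss of growth factor or DNA damage, and they either block the anti-apoptotic members or activate the effectors, which then open the outer membrane and release cytochrome c. Blood progenitors are known to need Mcl1 to survive, and Bbc3 and Pmaip1 are known targets of p53. Much of the control of these proteins is by phosphorylation, cleavage and turnover, which an RNA array does not read.

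The promoters of the 3 members with the steadiest difference between the progenitors are shown first, because Bcl2 and Bcl2l11 were lower and Bak1 higher in GMP. Each window is the 250 bases before the annotated transcription start, from RefSeq on GRCm38.p6, 5′ to 3′ on the strand of the gene. Bcl2 lies at chr1:106714291-106714540 on the minus strand, Bcl2l11 at chr2:128125788-128126037 on the plus strand and Bak1 at chr17:27028628-27028877 on the minus strand. Capitals mark a match to a searched motif on either strand.
Bcl2: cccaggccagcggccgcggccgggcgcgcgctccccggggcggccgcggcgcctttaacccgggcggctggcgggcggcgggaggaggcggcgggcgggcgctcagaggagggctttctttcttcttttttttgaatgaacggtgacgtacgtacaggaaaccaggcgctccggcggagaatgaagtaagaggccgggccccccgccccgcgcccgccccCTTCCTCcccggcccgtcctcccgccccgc
Bcl2l11: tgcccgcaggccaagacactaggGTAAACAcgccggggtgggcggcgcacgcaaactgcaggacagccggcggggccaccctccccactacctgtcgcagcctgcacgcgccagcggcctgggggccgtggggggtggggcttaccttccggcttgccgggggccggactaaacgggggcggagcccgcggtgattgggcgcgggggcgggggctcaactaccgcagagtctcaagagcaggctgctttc
Bak1: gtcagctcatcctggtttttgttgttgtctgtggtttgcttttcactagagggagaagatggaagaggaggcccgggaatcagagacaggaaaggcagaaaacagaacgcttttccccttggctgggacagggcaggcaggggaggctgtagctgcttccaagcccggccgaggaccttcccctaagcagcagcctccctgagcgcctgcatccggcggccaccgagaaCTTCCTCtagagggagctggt

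All 3 windows were rich in G and C, at 74.8% for Bcl2, 72% for Bcl2l11 and 58.4% for Bak1, where the median of 32851 such mouse windows was 52.4% and the 90th percentile 69.2%. The letters searched, on both strands, were those of factors of blood progenitors and of stress. GAGGAAG, a motif of ETS factors of the PU.1 kind, was found once in Bcl2, 30 bases before the start, and once in Bak1, 21 bases before it, and 10.6% of all windows hold it. TGTTTAC, a motif of FOXO factors, was found once in Bcl2l11, 227 bases before the start, and 3.17% of all windows hold it. The GATA letters AGATAA (in 9.99% of all windows), the STAT letters TTCNNNGAA (7.02%), the E-box CACGTG (6.02%), the C/EBP letters TTGCNNAA (9.56%), the AP-1 letters TGANTCA (6.75%) and the p53 half-site (7.13%) were not in these windows. The searched motifs can overlap one another, and a match describes the letters only.

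Of 14 genes that mark these progenitors, 11 differed between the sorted populations, 5 higher and 6 lower in GMP, and 3 did not pass the test. That is for the average over both genotypes, in which 35.7% of all genes tested were called. In G0 alone, 5 were called higher and 5 lower, beside 20.8% of all genes. In G4/G5 alone, 2 were called higher and 4 lower, beside 10.5%. In GMP, Fcgr3, a receptor by which GMP are usually gated, read between 731.9 and 1457, and Elane, a primary granule protease, between 1182 and 1797, while 3 CMP pools read at most 83.9 and 314.8. Gata1 and Meis1, factors of erythroid cells and of stem cells, were lower in all 4 GMP pools than in all 4 CMP pools. The 3 that did not pass in the average were the myeloid genes Mpo, Cebpa and Irf8. They read 11199, 308.1 and 1005 in G4/G5 CMP pool 2, above every GMP pool (at most 10015, 274.7 and 678.8). Among CMP pools, G4/G5 pool 1 stood apart. There, the summed signal of 14 genes of maturing neutrophils was 63623, against 362.4 to 444.9 in the other 3 CMP pools, and Fcgr3 read 617.5. The sum of 13 eosinophil, basophil and mast cell genes was 7854 there, against 2045 to 2594 in the other 3. That of 8 megakaryocyte genes was 3209, against 975.8 to 1728. The neutrophil sum was 1579 and 3559 in the G0 GMP pools and 33403 and 36615 in the G4/G5 GMP pools, so it moved with the genotype there. The part of these signals in the results below was not tested. Many member differences on which G4/G5 CMP pool 1 bears are also given without it. The interactions, the probe-set tests, the overlap counts, the gene lists and the genotype difference averaged over both progenitors are given only with it. In sorted pools, fewer cells of one kind and less RNA per cell cannot be told apart. Tert itself read at most 14.9, and as the allele is a fusion and not a deletion, it did not check the genotype labels.

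Signals are MAS5 values on a linear scale, set by the authors to a target of 100 per array. Differences between groups are on the scale log2(signal + 10), with the standard error (SE), and understate changes at low signal. Each adjusted p comes from limma with the Benjamini-Hochberg adjustment over all 8886 genes tested, and a gene is said to rise or fall where it is under 0.05. The brightest probe set stood for a gene, signals are compared only within a probe set, and all p-values rest on the spread among pools.

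**Figure D1:**
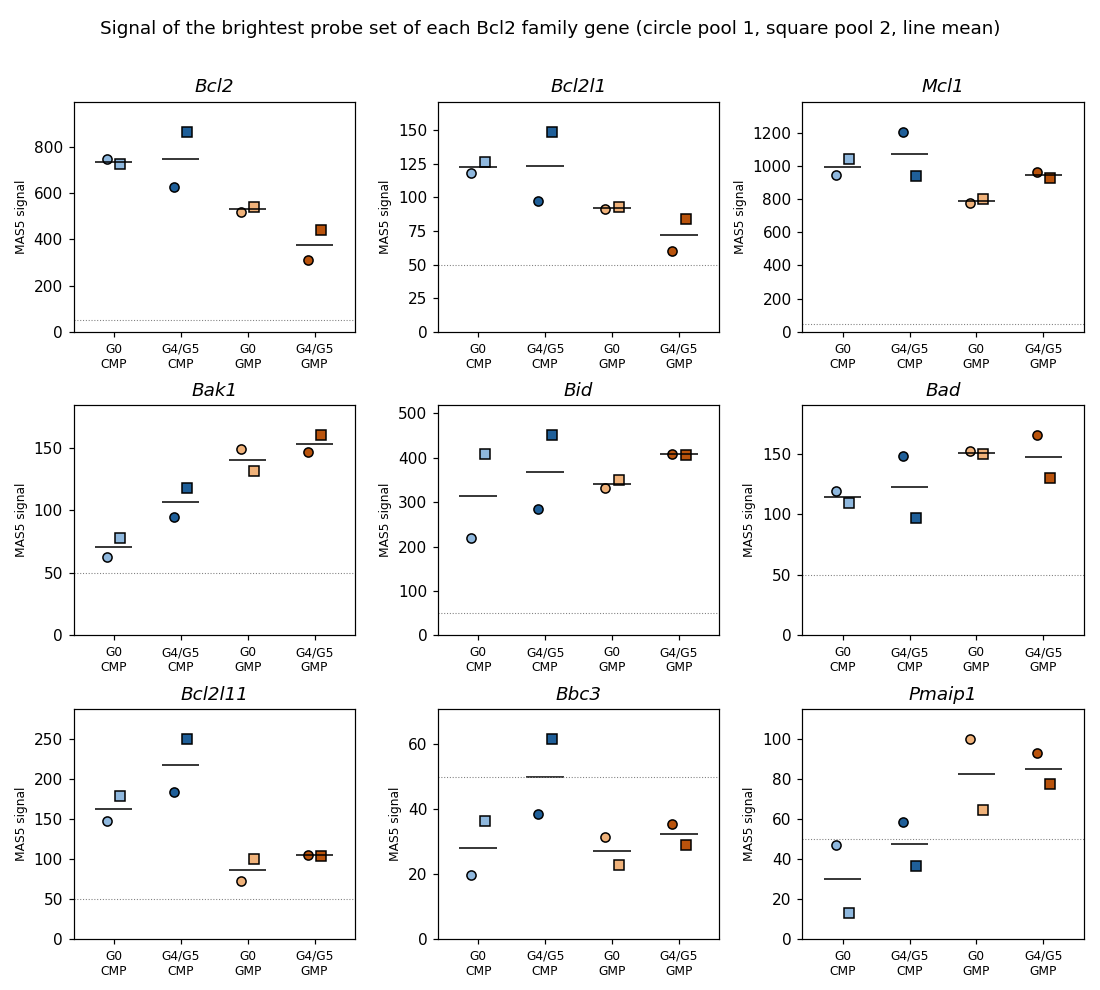
MAS5 signal (y axis, linear, from 0) of the brightest probe set of each of the 9 genes in the 4 groups (x axis). Circles are pool 1, squares pool 2, the short line is their mean and the dotted line marks a signal of 50. Bcl2 and Bcl2l11 sit lower, and Bak1 and Pmaip1 higher, in every GMP pool than in every CMP pool.

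Between the progenitors, the family did not move as a block. Averaged over both genotypes, a comparison added after the data were seen, 3 members fell in GMP (Bcl2l11, Bcl2 and Bcl2l1) and 2 rose (Bak1 and Pmaip1), of 8 tested. That is 5 of 8, beside 35.7% of all genes tested, of which 17% were higher and 18.7% lower in GMP. Pmaip1 passed the signal filter largely through GMP and so was likely to differ. Among the other 7 members, 4 were called. The median difference of the 8 members was -0.03, and that of all genes tested was -0.03. In G0 alone, 1 member rose (Bak1) and 1 fell (Bcl2l11), beside 20.8% of all genes called (10.6% higher and 10.2% lower). In G4/G5 alone, 2 fell (Bcl2 and Bcl2l11), beside 10.5% of all genes called (4.18% higher and 6.29% lower). The mean comparison includes the arrays of both others, so these counts do not support each other. With pool 1 of G4/G5 CMP omitted, the counts were 6 members in the mean, with Bad added, 3 in G0, with Pmaip1 added, and 3 in G4/G5, with Bcl2l1 added. The share of all genes called also rose in that fit, to 40.6%, 29% and 16.2%.

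Among the anti-apoptotic members, Bcl2, the founding inhibitor of apoptosis, read 746.7 and 727.3 (G0) and 627.4 and 866.6 (G4/G5) in the CMP pools and 518.7 and 541.3 (G0) and 312.8 and 441.7 (G4/G5) in the GMP pools. All 4 GMP pools were below all 4 CMP pools, and G4/G5 GMP pool 1 was the lowest. Averaged over the genotypes, Bcl2 fell in GMP by 0.72 ± 0.14 (SE), a 1.65-fold difference with a 95% interval of -1.04 to -0.40 and an adjusted p of 0.0064. It was also called without each array in turn (adjusted p at most 0.0342), and without G4/G5 CMP pool 1 the difference was -0.83 (adjusted p = 0.0023).

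Within the genotypes, Bcl2 fell in GMP by 0.97 ± 0.20 in G4/G5 (95% interval -1.42 to -0.51, 1.96-fold, adjusted p = 0.0238). In G0 the difference was -0.47 ± 0.20, with an adjusted p of 0.128. The test of the difference between these values, the interaction, gave -0.50 ± 0.28 with a 95% interval of -1.15 to 0.14 and an adjusted p of 0.994, so they are not shown to differ. The G4/G5 call rests on few arrays. It was lost without G4/G5 CMP pool 2 (adjusted p = 0.0652), G4/G5 GMP pool 1 (0.204) or pool 2 (0.0581), or G0 GMP pool 1 (0.0548) or pool 2 (0.0542), and in a fit of only the 4 arrays compared (0.0685). Without G4/G5 CMP pool 1 the difference was -1.20 (adjusted p = 0.0084), and the other settings with all 8 arrays gave adjusted p-values from 0.0138 to 0.0413.

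Bcl2 had 5 probe sets past the filter, and all 5 were lower in GMP. Averaged over the genotypes, their differences ran from -1.05 to -0.53, and all 5 were called when each of 14743 probe sets was tested on its own (adjusted p from 0.001 to 0.0256). Of all probe sets, 34% were called in that test. In G0, 2 of the 5 were called, beside 19.3% of all probe sets. With the median of the probe sets in place of the brightest, the adjusted p of Bcl2 in G0 was 0.0227. The probe sets read the same RNA samples and are not replicates of a condition.

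Bcl2l1, whose long form Bcl-xL protects maturing red cells and platelets, read 117.9 and 126.4 (G0) and 97.3 and 148.7 (G4/G5) in the CMP pools and 91.3 and 92.8 (G0) and 60.4 and 84.0 (G4/G5) in the GMP pools. The GMP pools were again all below the CMP pools, but by a small margin between G4/G5 CMP pool 1 and the G0 GMP pools. The averaged difference was -0.53 ± 0.16 (1.44-fold, adjusted p = 0.0371). It was not called with arrays centred on their median (0.101), with quantile normalization (0.100) or with no signal filter (0.0727), nor in 6 of 8 fits that left out 1 array, where the adjusted p reached 0.144. Without G4/G5 CMP pool 1 the difference was -0.67 (adjusted p = 0.0098). In the single genotypes it was -0.37 ± 0.23 in G0 (adjusted p = 0.279) and -0.68 ± 0.23 in G4/G5 (0.0954; 0.0295 without G4/G5 CMP pool 1). The other 3 probe sets of Bcl2l1 read at most 10.4 on any array. This array does not part the long from the short form of its transcript.

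Mcl1, a protein of fast turnover that guards early progenitors, read 942.6 and 1039 (G0) and 1206 and 935.8 (G4/G5) in the CMP pools and 777.0 and 801.5 (G0) and 964.2 and 929.3 (G4/G5) in the GMP pools. The G0 GMP pools were lowest and the other groups overlapped. The averaged difference of this brightest probe set was -0.24 ± 0.10 (95% interval -0.48 to -0.01, adjusted p = 0.0944). Of 6 probe sets, 4 others were called lower in GMP, where 34% of all probe sets were called. Their differences ran from -0.46 to -0.35 and their adjusted p-values from 0.0083 to 0.017. The remaining one differed by 0.10 ± 0.14 (adjusted p = 0.604). Without G4/G5 CMP pool 1 the averaged difference of the brightest was -0.15 (adjusted p = 0.188), and that within G4/G5 moved from -0.16 to 0.016. The probe sets of Mcl1 thus did not give 1 answer.

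Of the effectors, Bak1, which forms pores in the mitochondrial membrane, read 62.9 and 77.6 (G0) and 94.7 and 118.2 (G4/G5) in the CMP pools and 149.3 and 131.6 (G0) and 146.3 and 160 (G4/G5) in the GMP pools. Both G0 CMP pools were the lowest, both G4/G5 CMP pools lay in the middle and the GMP pools were highest, with G0 and G4/G5 overlapping there. Averaged over the genotypes, Bak1 rose in GMP by 0.70 ± 0.13 (95% interval 0.40 to 1.00, 1.63-fold, adjusted p = 0.0051). It was also called without each array in turn (adjusted p at most 0.0333), and without G4/G5 CMP pool 1 the difference was 0.63 (adjusted p = 0.0084). It had 1 probe set past the filter, and another that read at most 18.2.

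In G0, Bak1 rose by 0.91 ± 0.19 (95% interval 0.49 to 1.33, 1.88-fold, adjusted p = 0.0139), a call lost without G0 GMP pool 1 (0.130) or pool 2 (0.0617). In G4/G5 it differed by 0.49 ± 0.19 (adjusted p = 0.121). The interaction was -0.42 ± 0.26 with a 95% interval of -1.02 to 0.18 and an adjusted p of 0.994, so the gap is not shown to be wider in normal mice. The G4/G5 difference was 0.35 (adjusted p = 0.271) without G4/G5 CMP pool 1.

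Among the BH3-only members, Bcl2l11, which encodes Bim and is raised when growth factor is withdrawn, read 146.7 and 178.3 (G0) and 183.4 and 249.7 (G4/G5) in the CMP pools and 72.0 and 100.1 (G0) and 105.3 and 103.6 (G4/G5) in the GMP pools. Each CMP pool was above each GMP pool. Averaged over the genotypes, it fell in GMP by 0.91 ± 0.15 (95% interval -1.26 to -0.57, 1.88-fold, adjusted p = 0.0033), was called without each array in turn (adjusted p at most 0.0203), and differed by -1.02 (adjusted p = 0.0019) without G4/G5 CMP pool 1. Bcl2l11 was thus lower in GMP together with the inhibitor Bcl2 that its protein binds.

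Bcl2l11 was the member called in both genotypes, by -0.85 ± 0.21 in G0 (adjusted p = 0.0271) and -0.97 ± 0.21 in G4/G5 (adjusted p = 0.0292). The G0 call was lost without G0 CMP pool 2 (0.107), G0 GMP pool 1 (0.205) or pool 2 (0.0577), or G4/G5 GMP pool 1 (0.0569) or pool 2 (0.0566). The G4/G5 call was lost without G4/G5 CMP pool 2 (0.0903), G4/G5 GMP pool 1 (0.196) or pool 2 (0.15), and in a fit of only the 4 arrays compared (0.0530). The G4/G5 difference was -1.18 (adjusted p = 0.0153) without G4/G5 CMP pool 1. With no signal filter, which adjusts over more genes, the values were 0.0539 and 0.0566, and with the median of its probe sets 0.0726 and 0.0931. Of its 3 probe sets past the filter, all lower in GMP, 2 were called in the averaged comparison, at -0.91 and -0.49. The other differed by -0.40 ± 0.16 (adjusted p = 0.0867), and 34% of all probe sets were called there. That probe set reached 50 in every CMP pool but among GMP only in G0 pool 1, so the filter favoured this direction.

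Pmaip1, which encodes Noxa, a binder of Mcl-1 under p53 and other stress signals, read 47.1 and 13.03 (G0) and 58.6 and 36.8 (G4/G5) in the CMP pools and 100.1 and 64.6 (G0) and 92.9 and 77.3 (G4/G5) in the GMP pools. It passed the filter largely through GMP, with 4 GMP pools and 1 CMP pool at or above 50, so a difference in this direction was favoured by the filter. Averaged over the genotypes it rose in GMP by 1.03 ± 0.30 (2.05-fold, adjusted p = 0.0293). The call was lost without G0 GMP pool 1 (0.118), G4/G5 CMP pool 2 (0.0621) or G4/G5 GMP pool 1 (0.107) or pool 2 (0.0690), and with no filter (0.0550). Without G4/G5 CMP pool 1 the difference was 1.17 (adjusted p = 0.0226). In G0 the difference was 1.32 ± 0.43 (adjusted p = 0.0588, and 0.0175 with the pool number as a replicate block), and in G4/G5 0.74 ± 0.43 (0.277).

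Bid, which carries the signal of death receptors to the mitochondrion once cleaved, read 218.7 and 408.8 (G0) and 285.8 and 451.0 (G4/G5) in the CMP pools and 332.8 and 349.0 (G0) and 409.3 and 407.3 (G4/G5) in the GMP pools. The CMP pools spanned the GMP pools, and the averaged difference was 0.18 ± 0.21 (95% interval -0.29 to 0.65, adjusted p = 0.520; 0.02 without G4/G5 CMP pool 1). A dimmer probe set of Bid, which read between 25.9 and 63.1, was called higher in GMP at 0.58 ± 0.18 (adjusted p = 0.0372). Of all probe sets, 34% were called there. It reached 50 in every GMP pool but among CMP only in G4/G5 pool 1, so the filter favoured this direction. The remaining probe set of Bid did not pass the filter. Bad, held inactive by growth factor signalling, read 119.5 and 109.5 (G0) and 148.0 and 97.1 (G4/G5) in the CMP pools and 152.2 and 149.7 (G0) and 165.3 and 129.7 (G4/G5) in the GMP pools. Its averaged difference was 0.32 ± 0.15 (adjusted p = 0.133; 0.0260 without G4/G5 CMP pool 1), and its second probe set differed by 0.24 ± 0.16. Bbc3, which encodes Puma, read 19.6 and 36.3 (G0) and 38.4 and 61.6 (G4/G5) in the CMP pools and 31.4 and 22.8 (G0) and 35.6 and 29.0 (G4/G5) in the GMP pools. It was at or above 50 on 1 array and was not tested.

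**Figure D2:**
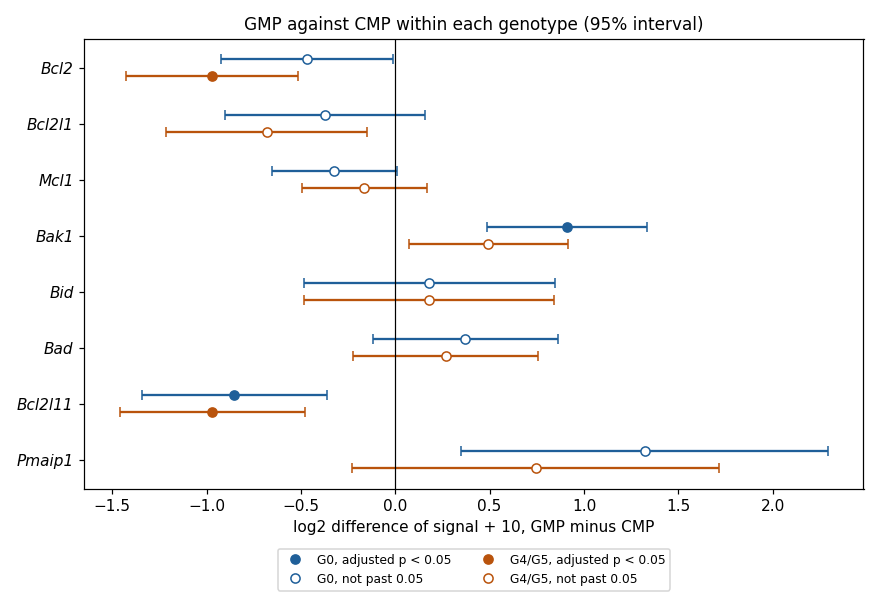
Difference GMP minus CMP of log2(signal + 10) (x axis) for the 8 members tested, in G0 (blue) and G4/G5 (orange), with 95% intervals. Filled points passed an adjusted p of 0.05: Bak1 in G0, Bcl2 in G4/G5 and Bcl2l11 in both.

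In 5 of 8 members (Bcl2, Bcl2l1, Bak1, Bcl2l11 and Pmaip1) the 4 GMP pools and the 4 CMP pools did not overlap, beside 32.3% of all genes tested. Without Pmaip1, which the filter favoured in this direction, they were 4 of 7. In the order of group means, Bcl2 and Bcl2l1 ran from G4/G5 GMP, the lowest, to G0 GMP, with both CMP groups above and overlapping each other. Bak1 ran from G0 CMP over G4/G5 CMP to both GMP groups, which overlapped. The brightest probe set of Bcl2l11 ran from G0 GMP over G4/G5 GMP and G0 CMP to G4/G5 CMP, with no overlap of neighbours. In a dimmer one the progenitors overlapped, with G0 CMP pool 1 at 120.5 and G4/G5 GMP pool 2 at 127.5. In Bid and Bad each group overlapped its neighbour in the order.

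**Figure D3:**
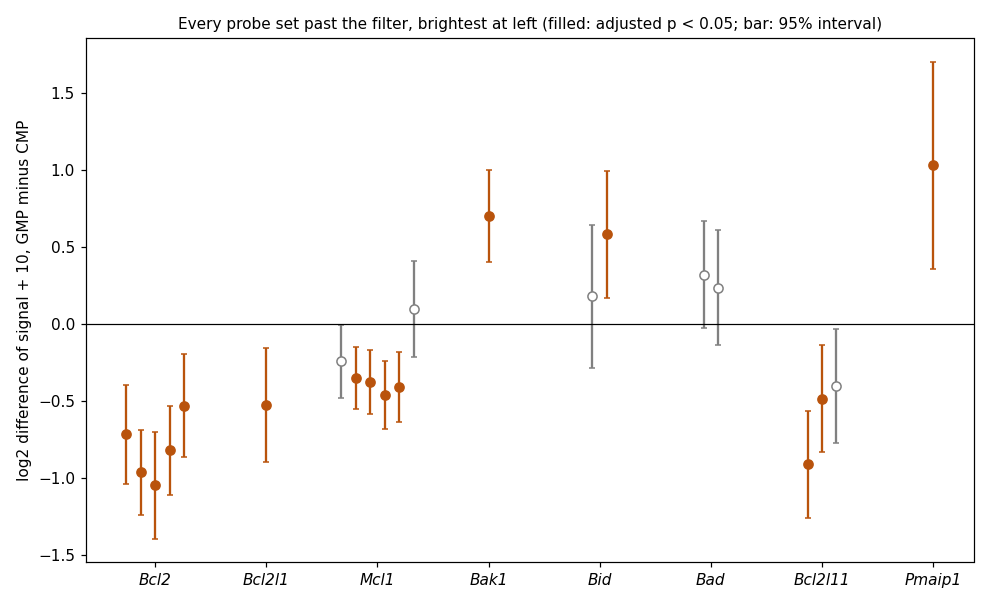
Difference GMP minus CMP of log2(signal + 10), averaged over both genotypes (y axis), for each of the 21 member probe sets past the filter, grouped by gene (x axis) with the brightest at the left. Bars are 95% intervals, and filled points passed an adjusted p of 0.05 over all probe sets. All 5 probe sets of Bcl2 were called lower, while the probe sets of Mcl1 and Bid split. Of all probe sets, 34% were called in this comparison.

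Between the genotypes, 0 of 8 members were called in any of 4 comparisons. The smallest adjusted p of a member was 0.316 in CMP (0.0113% of all genes called), 0.613 in GMP (0% called), 0.252 for the mean of both progenitors (0.0338% called) and 0.994 for the interaction (0% called). At an unadjusted p under 0.05, the counts were 1 member in CMP (Bak1), 1 in GMP (Bcl2), 1 for the mean (Bak1) and 0 for the interaction, beside 13.4%, 7.87%, 17.8% and 3.97% of all genes tested. The median difference of the members, G4/G5 minus G0, was 0.18 in CMP and 0.09 in GMP, beside 0.04 and 0.01 for all genes. The 95% intervals of single members reached from -0.55 to 1.62 in CMP and from -0.96 to 1.04 in GMP. The bounds above 1 are those of Pmaip1.

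In CMP, Bak1 had the largest difference relative to its error, 0.54 ± 0.19 (95% interval 0.11 to 0.96, adjusted p = 0.316). Its G4/G5 signal was 1.51 times the G0 signal in pool 1 and 1.52 times in pool 2. Without G4/G5 CMP pool 1 the difference was 0.68 ± 0.21 (adjusted p = 0.395). Bcl2l11 differed by 0.38 ± 0.21 (0.469), with pool ratios of 1.25 and 1.40. Pmaip1 differed by 0.64 ± 0.43 (0.537), with ratios of 1.24 and 2.82. Bid differed by 0.25 ± 0.29 (0.740), Mcl1 by 0.10 ± 0.14 (0.802) and Bad by 0.06 ± 0.22 (0.916), and Bcl2l1 by -0.02 ± 0.23 (0.980). The brightest probe set of Bcl2 had ratios of 0.840 and 1.19, opposite in the pools, and an adjusted p of 0.998. With pool 1 of G4/G5 CMP omitted, the CMP differences of these 7 members were 0.60 for Bcl2l11, 0.37 for Pmaip1, 0.57 for Bid, -0.080 for Mcl1, -0.22 for Bad, 0.27 for Bcl2l1 and 0.23 for Bcl2, with adjusted p-values of 0.463 to 0.835. Mcl1, Bad and Bcl2l1 thus turned sign without it.

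The p53 target Bbc3, dim and outside the test, read higher in G4/G5 than in G0 in both CMP pools, by ratios of 1.96 and 1.70. With no signal filter its difference was 0.67 ± 0.33 in CMP (adjusted p = 0.533) and 0.19 in GMP (0.954). Signals this low are the least precise on the array.

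In GMP, Bcl2 differed by -0.50 ± 0.20 (95% interval -0.96 to -0.04, adjusted p = 0.613), with G4/G5 over G0 ratios of 0.603 and 0.816. All 5 of its probe sets were lower in G4/G5, by -0.51 to -0.09, and 0 of them were called. Bcl2l1 differed by -0.33 ± 0.23 (0.717), with ratios of 0.661 and 0.905. Mcl1 went the other way at 0.26 ± 0.14 (0.660), with ratios of 1.24 and 1.16, though its other 5 probe sets ran from -0.05 to 0.12. The BH3-only Bcl2l11 and Bid differed by 0.27 ± 0.21 and 0.25 ± 0.29, Bak1 by 0.12 ± 0.19, Pmaip1 by 0.06 ± 0.43 and Bad by -0.04 ± 0.22. Of 3 probe sets of Bcl2l11, 2 were higher in G4/G5 and 1 was lower, at -0.11. These values stand beside the neutrophil gene sums given above, which were higher in both G4/G5 GMP pools than in both G0 GMP pools.

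The G0 and G4/G5 pools did not overlap in 2 of 8 members in CMP (Bak1 and Bcl2l11), beside 36.5% of all genes, and in 5 of 8 in GMP (Bcl2, Bcl2l1, Mcl1, Bid and Bcl2l11), beside 55.4%. With the pool number as a replicate block, which pairs the pools as the series text names them, the member count remained 0 in each genotype comparison, and the adjusted p of Bak1 in CMP was 0.223 with the block within each cell type.

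**Figure D4:**
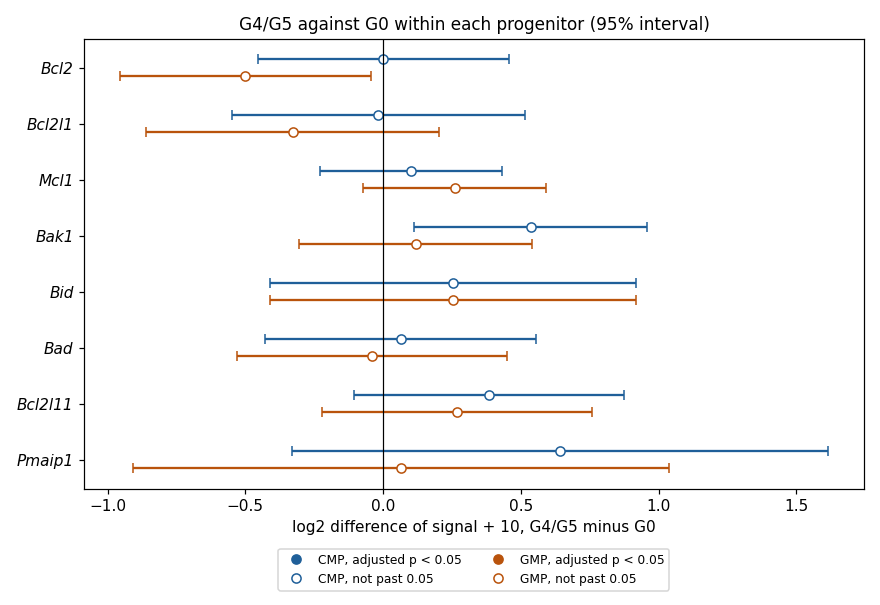
Difference G4/G5 minus G0 of log2(signal + 10) (x axis) for the 8 members tested, in CMP (blue) and GMP (orange), with 95% intervals. All points are open, since 0 passed an adjusted p of 0.05. The intervals of Bak1 in CMP and Bcl2 in GMP lie to 1 side of 0 before adjustment over all genes.

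The rest of the pathway is given from lists, for GMP against CMP averaged over the genotypes, beside the 17% of all genes called higher, the 18.7% called lower and the median of -0.03. Of 19 genes of the apoptosome and the caspases, the machinery downstream of the mitochondrion, 8 rose and 5 fell in GMP, with a median of 0.12. The mitochondrial proteins Endog (1.01 ± 0.14, adjusted p = 0.0021), Htra2 (0.88 ± 0.09) and Aifm1 (0.69 ± 0.15), which are set free or act after the outer membrane opens, rose. The caspase inhibitors Xiap (-0.74 ± 0.09) and Birc2 (-0.77 ± 0.10) and the executioner caspase Casp6 (-0.86 ± 0.18) fell.

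Of 10 genes of the death receptor pathway, which feeds into Bid, 2 rose and 1 fell, with a median of -0.0043. The death ligand Tnfsf10 (Trail) fell by 1.25 ± 0.18 and read 126.9, 137.7, 58.1 and 91.6 in the CMP pools and 26.1 to 46.0 in the GMP pools. It passed the signal filter through CMP pools alone, so the filter favoured this direction. The receptor Tnfrsf1a rose by 0.36 ± 0.09. Bcap31, a membrane protein of the endoplasmic reticulum cleaved by caspase-8, rose by 0.30 ± 0.08.

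Of 18 genes of the p53 pathway, 1 rose and 8 fell, with a median of -0.39. Trp53inp1 (-1.504 ± 0.21), Sesn1 (-1.02 ± 0.13) and Zmat3 (-0.75 ± 0.19), all known p53 targets, fell in GMP, and Tigar, a regulator of glycolysis, rose by 0.80 ± 0.19. Of the p53 targets among the members, Pmaip1 was higher in GMP, and Bbc3, below the filter, differed by -0.24 (GMP minus CMP, adjusted p = 0.565 with no signal filter). Of 26 transcription factors, kinases and turnover factors that act on the family, 3 rose and 9 fell, with a median of -0.34. Foxo3 (-1.10 ± 0.17) and Foxo1 (-0.995 ± 0.22), known to drive Bcl2l11, fell, as did Stat5a (-0.89 ± 0.13), which acts below cytokine receptors. Any part of these factors in the fall of Bcl2l11 was not tested. E2f1 (0.56 ± 0.13), Atf4 (0.47 ± 0.12) and Rnf5 (0.39 ± 0.10) rose.

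Of 12 survival cytokine receptors, 0 rose and 4 fell, with a median of -0.24. They included Epor (-1.36 ± 0.31), Flt3 (-1.20 ± 0.23) and Kit (-0.96 ± 0.19). Epor moved with most, but not all, of the erythroid and megakaryocyte markers. Of 5 erythroid genes tested, 3 fell in GMP and 1, Tfrc, rose (527.0 to 778.2 in CMP, 1007 to 1263 in GMP). Of 7 megakaryocyte genes tested, 6 fell. Vwf, Gp9, Itgb3 and Treml1 passed the signal filter through CMP pools alone, so the filter favoured lower values in GMP for them. The summed megakaryocyte signal was 975.8 to 1728 in 3 CMP pools, 3209 in G4/G5 CMP pool 1 and 466.6 to 706.2 in GMP. The part of such cells in the fall of Bcl2, Bcl2l1 and Bcl2l11 was not tested. Of the remaining family genes, Bcl2l2, the 1 anti-apoptotic gene that passed the filter, differed by 0.29 ± 0.11 (adjusted p = 0.073). Of 5 effector-like and BH3-only genes tested, 0 were called, and the widest was Bcl2l12 at 0.20 ± 0.17.

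Within single genotypes, the lists and all genes alike gave fewer calls (20.8% of all genes in G0 and 10.5% in G4/G5). In G0, 5 rose and 3 fell of the apoptosome and caspase genes, 1 and 1 of the death receptor genes, 0 and 2 of the p53 genes, 3 and 4 of the regulators and 0 and 3 of the receptors. In G4/G5 the counts were 3 and 4, 0 and 1, 0 and 3, 0 and 3, and 0 and 2. Between the genotypes, 0 genes of these lists were called. The widest in CMP was the p53 target Zmat3, where the pools read 42.3 and 40.8 (G0) and 120.5 and 75.8 (G4/G5), a difference of 1.04 ± 0.27 with an adjusted p of 0.251. The widest in GMP was Trp53inp1, at 1.37 ± 0.30 with an adjusted p of 0.595, where the pools read 100.5 and 200.3 (G0) and 382.2 and 386.8 (G4/G5).

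**Figure D5:**
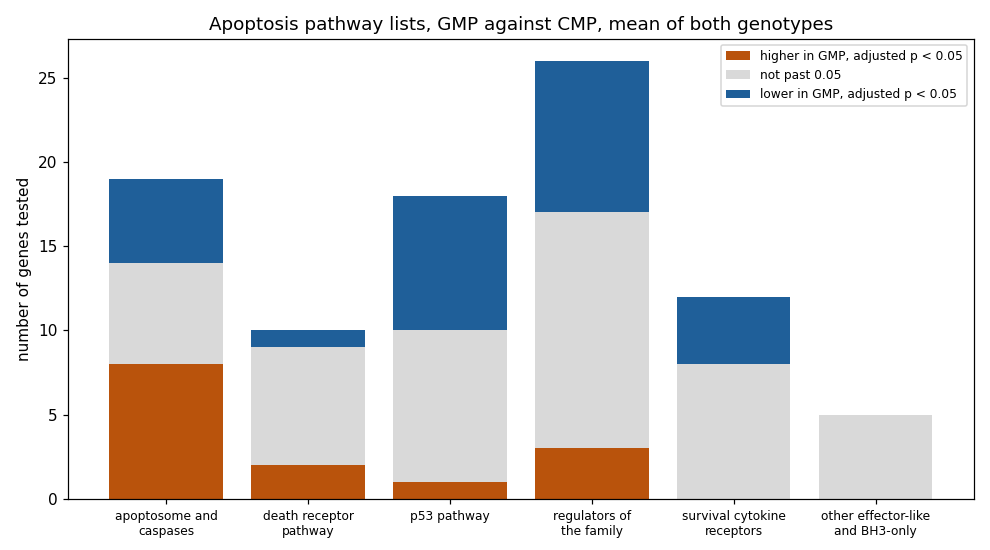
Number of genes tested (y axis) in each list of the apoptosis pathway (x axis), divided into those called higher in GMP (orange), not past an adjusted p of 0.05 (grey) and called lower in GMP (blue), for GMP against CMP averaged over both genotypes. Calls split both ways for the apoptosome and caspases, 8 higher and 5 lower, and were mostly lower for the p53 pathway, 1 higher and 8 lower.

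Genes whose pattern over the 8 arrays was most like that of a member were named for the 3 members whose group means spanned more than 1 on the log2 scale, by the root mean square difference of their values after each gene was centred on its own mean. For Bak1 they were Txndc11 (0.08), Hexa (0.11), which encodes a lysosomal hexosaminidase subunit, and B4gat1 (0.11). For Bcl2l11 they were 1600020E01Rik (0.09) and the transcription factors Hhex (0.11) and Nfe2 (0.12). Nfe2, for one, read 942.1, 1240, 1185 and 1320 in the CMP pools and 480 to 660 in the GMP pools, above and below without overlap as in Bcl2l11. For Pmaip1 the nearest genes were farther off: Snhg3 (0.22), the cyclin Ccne1 (0.24) and Piga (0.24).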

How the data were processed

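Per the submitters' processing notes and the series text, the authors made MAS5 probe-set signals, microarray intensities on a linear scale with each array scaled to a target of 100, and deposited 45101 probe sets. The settings for background and detection are not given in the sources used here. Per the labels, 5 to 10 ng of Trizol-extracted RNA was amplified by a 3' in vitro transcription kit. The deposited intensities were taken to log2(signal + 10) without normalization between arrays. The platform annotation gave 34945 probe sets 1 symbol, 932 several and 9160 none, and the 64 controls were dropped. Promoters came from RefSeq (GRCm38.p6), with 9 of 10 members matched.

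limma 3.58.1 in R 4.3.3 fitted 1 mean per group over all 8 arrays (4 residual degrees of freedom) with an intensity trend, and was tested on simulated data. Of 7 comparisons, 1 was added after the data were seen. Tables and figures used Python 3.11.15, pandas 2.3.3 and matplotlib 3.10.9. Every member was named, and of each pathway list up to 3 largest rises and falls. The members and lists were chosen with earlier results of these data known. Arrays give no depth; their number limits the precision. Alternatives changed the pseudocount (1 or 32), filter (100 or none), normalization, probe-set rule, trend, arrays fitted and replicate block.

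The series text names G0 and G4/G5 pools of a number as paired within a cell type. Their deviations correlated across genes at 0.247 in CMP and 0.139 in GMP. Between CMP and GMP groups the values ran from -0.229 (G4/G5 CMP with G0 GMP) to 0.217 (G0 CMP with G0 GMP). No label says whether CMP and GMP pools of a number share mice. Shared mice would leave fewer independent units.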

Additional observations from a re-analysis of the deposited data

How the results depend on the processing

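In the 13 alternatives other than leaving out an array, 460 member differences kept direction and call, 9 gained a call, 10 lost it and 4 turned sign. With no signal filter 1 member was called in G0, 1 in G4/G5 and 3 in the mean of the genotypes for GMP against CMP. The share of all genes called also fell in that fit, to 6.78%, 2.7% and 15%. With every probe set tested on its own, 4 genes were called in G0 through 5 of 21 member probe sets, beside 19.3% of all probe sets, and a gene with more probe sets had more chances. In G4/G5, 1 was called with the median of probe sets and 0 with only the 4 arrays compared, beside 8.43% and 4.82% of all genes. Leaving out 1 array in turn gave 0 to 3 members in G0, 0 to 3 in G4/G5 and 3 to 6 in the mean, and 0 in each genotype comparison, with or without the replicate block. The number of all genes called also moved when an array was left out, in G0, in G4/G5 and in the mean. The swing in those fits is thus not particular to the members. Paired by the block, 0 members were called between genotypes.

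The sign turned for G4/G5 minus G0 in CMP in Bcl2l1 with median centring (0.0051), and with the median of probe sets in Bcl2 (-0.0020) and Mcl1 (-0.074), and in GMP in Bad (0.015). When 1 array was left out, the differences ran in CMP from -0.23 to 0.23 for Bcl2, -0.30 to 0.27 for Bcl2l1, -0.080 to 0.28 for Mcl1, -0.18 to 0.69 for Bid, -0.22 to 0.34 for Bad and -0.012 to 1.30 for Pmaip1. In GMP they ran from -0.20 to 0.12 for Bad and -0.22 to 0.35 for Pmaip1. GMP minus CMP ran from -0.26 to 0.62 for Bid in G0, -0.35 to 0.016 for Mcl1, -0.14 to 0.50 for Bid and -0.013 to 0.55 for Bad in G4/G5, and -0.038 to 0.40 for Bid in the mean. The cause was not tested.

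Over all genes tested, leaving out 1 array moved the calls from 1845 to between 67 and 2556 in G0 and from 930 to between 65 and 1422 in G4/G5, and other alternatives to between 1233 and 2112 and between 428 and 1225. Between genotypes, the 1 call in CMP became 0 to 443 and the 0 in GMP became 0 to 55 without 1 array, and 360 in GMP with only the 4 arrays compared. Median centring shifted the median gene by 0.164 in G0 and 0.145 in G4/G5, and the share of calls higher in GMP from 50.9% to 73.2% and from 39.9% to 65.5%. No called member turned its direction under it.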
